A study of Mus musculus with 57 samples.

Results

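The calcium/calmodulin kinases described here are the products of 8 genes, Camk2a, Camk2b, Camk2d, Camk2g, Camk4, Camk1, Camkk2 and Camkk1. Members were all probesets annotated to these symbols. The annotation listed 14 such probesets of the 22626 on the array, for 7 of the 8 genes, and none for Camkk1, which is not analysed here. All 14 carried a single gene symbol and all 14 were among the 19815 probesets that reached the study's low-signal limit of 4.5 (log2) on at least 1 array. They were measured in 57 Affymetrix Mouse Genome arrays of brain tissue from male C57Bl/6NCrl mice, an inbred strain, received as young animals. The arrays comprised 19 of the nucleus accumbens (NAc), 19 of the ventral midbrain (VMB, which includes the ventral tegmental area) and 19 of the prefrontal cortex (PFC). All mice had 16 sessions of 18 h with a choice between 10% (w/v) ethanol and water, and tissue was taken 6 days after the last session. Per the study's methods the 57 arrays come from 19 mice, 1 array per mouse and region, so the regions share their animals, and the fits below treat the arrays as separate samples because no label ties an array to a mouse. No mouse without ethanol access is among the samples, so the comparisons below are between regions and among drinking mice. Ethanol intake per mouse is in neither the labels nor the values used, and its relation to the kinases was not analysed here.

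When calcium enters a neuron it binds calmodulin, and the complex activates these kinases. CaMKII assembles from alpha, beta, delta and gamma subunits, encoded by Camk2a, Camk2b, Camk2d and Camk2g, and autophosphorylation keeps it active after calcium has fallen, a property tied to synaptic plasticity at excitatory synapses. Camkk1 and Camkk2 encode upstream kinases that phosphorylate the products of Camk1 and Camk4, and the Camk4 product acts in the nucleus on CREB-dependent transcription.

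Values are log2 signals after quantile normalization of all arrays together, because the deposited values sat at a different level in each region. The array medians were 6.26 to 6.32 in NAc, 5.79 to 5.86 in VMB and 5.66 to 5.70 in PFC, and the median difference over all tested probesets on the deposited scale was 0.72 for NAc minus PFC, 0.18 for VMB minus PFC and 0.55 for NAc minus VMB. After normalization these medians were 0.03, 0.02 and 0.02. A probeset's level depends on its probes, so levels are compared between regions for 1 probeset and never between probesets. The labelled regions carried their defining markers. The mean of the 4 of 7 striatal projection neuron genes that were tested was 9.74 to 10.25 in NAc, 6.92 to 7.28 in VMB and 6.38 to 6.68 in PFC. The mean of 4 of 5 dopamine neuron genes was 5.36 to 5.83 in NAc, 7.66 to 8.26 in VMB and 4.55 to 4.89 in PFC, and that of 3 of 5 cortical excitatory neuron genes was 5.99 to 7.12, 4.38 to 4.97 and 8.19 to 8.65 in the same order of regions. PFC replicate 20 is PFC by its title, although its source and region entries name the ventral tegmental area. Its cortical marker mean was 8.44 and its dopamine marker mean 4.78, within the range of the PFC arrays, and it was kept as PFC. In bulk tissue, fewer cells of a type and less RNA per cell cannot be told apart.

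Camkk2 and Camk2d recur below, the first for its differences between regions and the second for its variation among mice, and the promoter of each is shown to set the genes in the genome. The sequences are those of RefSeq on GRCm38.p6, 250 bases before to 50 after the annotated start, at chr5:122779361-122779660 on the minus strand for Camkk2 and chr3:126596701-126597000 on the plus strand for Camk2d. Capitals mark the GC box, GGGCGG, on either strand.
Camkk2: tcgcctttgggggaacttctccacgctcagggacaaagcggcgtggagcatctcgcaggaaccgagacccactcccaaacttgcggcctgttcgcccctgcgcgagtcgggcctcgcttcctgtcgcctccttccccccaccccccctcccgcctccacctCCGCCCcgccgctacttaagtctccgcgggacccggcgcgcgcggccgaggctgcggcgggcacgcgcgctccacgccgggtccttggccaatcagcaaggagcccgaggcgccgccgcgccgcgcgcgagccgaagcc
Camk2d: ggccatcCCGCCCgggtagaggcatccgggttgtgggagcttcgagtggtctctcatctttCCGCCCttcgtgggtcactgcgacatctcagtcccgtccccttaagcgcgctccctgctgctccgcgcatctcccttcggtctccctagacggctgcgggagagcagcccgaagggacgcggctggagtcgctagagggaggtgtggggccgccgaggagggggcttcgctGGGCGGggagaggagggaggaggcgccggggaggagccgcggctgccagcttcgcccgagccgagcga
The Camkk2 window held 1 GC box and 73.3% G and C, and the Camk2d window held 3 GC boxes and 70.3% G and C. Of 32851 mouse promoter windows of this length, 35.7% held a GC box on either strand and the median G and C content was 52.7%. Neither window held the cAMP response element TGACGTCA, which 1.79% of all windows held, or the TATA box letters TATAAA, which 13.6% held. These matches describe letters only.

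The CaMKII subunit genes had separate regional patterns. Camk2a was highest in PFC by a wide margin, Camk2b was highest in NAc, and Camk2d and Camk2g were lowest in NAc, except that Camk2g 1423942_a_at was 0.19 higher in NAc than in PFC on deposited values. Camk2a (1452453_a_at), the alpha subunit, known from excitatory forebrain neurons, had a lowest, median and highest signal of 4.94, 5.42 and 6.11 in NAc, of 3.82, 4.09 and 5.02 in VMB, and of 7.74, 9.01 and 9.88 in PFC. Every NAc array and every VMB array was below every PFC array, while NAc and VMB overlapped slightly. NAc minus PFC was -3.52 log2 units for Camk2a (11.5-fold lower in NAc, 95% interval of the difference -3.76 to -3.28, adjusted p = 8.84e-35) and VMB minus PFC was -4.77 as measured (adjusted p = 2.76e-42). NAc exceeded VMB by 1.26 (1.02 to 1.50, adjusted p = 1.84e-14). In VMB, 15 of 19 deposited Camk2a values lay under the low-signal limit, so the size of the VMB difference is only a bound. With those values raised to the limit on the deposited scale, Camk2a was at least 18.3-fold lower in VMB than in PFC. The cortical excitatory markers ranked the regions alike, PFC over NAc over VMB, and their part in the Camk2a differences was not tested.

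Camk2b (1448676_at), the beta subunit, which binds actin, measured 9.30, 9.61 and 10.46 in NAc (lowest, median, highest), 8.53, 8.74 and 9.14 in VMB, and 9.05, 9.18 and 9.55 in PFC. All NAc arrays were above all VMB arrays, and the other region pairs overlapped. The difference was 0.56 for NAc minus PFC (adjusted p = 6.76e-10), -0.43 for VMB minus PFC (adjusted p = 5.34e-07) and 1.0 for NAc minus VMB (adjusted p = 7.79e-19). On deposited values NAc minus PFC was 1.26 and NAc minus VMB 1.65. The NAc values fell into a lower set of 13 arrays up to 9.74 and an upper set of 6 arrays from 10.15, replicates 1, 4, 6, 9, 18 and 19. Replicates 1, 6 and 19 were also the 3 NAc arrays farthest along the first principal component of all tested probesets, and without them Camk2b was 0.46 higher in NAc than in PFC (adjusted p = 3.15e-09). The striatal marker means of these 3 arrays were 10.25, 10.14 and 10.15 (NAc median 10.00) and their cortical marker means 6.37, 5.99 and 6.44 (NAc median 6.61). Their choroid plexus marker means were 4.73, 4.89 and 4.87 (3 of 4 genes tested, NAc median 4.62). Over the 19 NAc arrays the choroid plexus list was the cell type list that passed with Camk2b (permutation test, adjusted p = 0.00168 for r and 0.0195 for rho, over 168 relations of members with marker lists and the first principal component), while the striatal and cortical lists did not pass (adjusted p = 0.075 and 0.0947 for r). The choroid plexus means in NAc were low, at 4.39 to 4.89. By r this list also passed in NAc with Camk2g, Camk4 and, negatively, Camk1 (permutation test, adjusted p = 0.0167, 0.0481 and 0.0194). Camk2b passed with the first principal component by r but not by rho (permutation test, adjusted p = 0.0021 and 0.0975). It was not alone in NAc. Camk1 and Camk4 also passed by r only (adjusted p = 0.0144 and 0.0479, and 0.0502 each for rho). Camk2g passed by both (0.0167 and 0.0227), and Camkk2 by rho only (0.0084, with 0.0647 for r). Of the 168 relations, 16 passed by r and 11 by rho. The part of these cell types in the upper set was not tested.

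Camk2d, the delta subunit, was read by 2 probesets. Probeset 1422659_at measured 4.81, 5.90 and 6.25 in NAc, 6.02, 6.85 and 7.20 in VMB, and 6.31, 6.85 and 7.29 in PFC. Its NAc arrays were all below the PFC arrays, though not on deposited values, with a difference of -1.09 (adjusted p = 1.57e-14), and NAc minus VMB was -1.04 (adjusted p = 7.30e-14). VMB and PFC did not differ at the threshold (-0.05, 95% interval -0.26 to 0.16, adjusted p = 0.665), and the sign of this difference turned with deposited values (0.05) and with array weights (0.02). For 1427763_a_at the means were 6.32 ± 0.32 in NAc, 7.25 ± 0.44 in VMB and 7.01 ± 0.27 in PFC (SD, n = 19 each). NAc was lowest for this probeset too, with -0.69 for NAc minus PFC (adjusted p = 8.91e-08) and -0.93 for NAc minus VMB (adjusted p = 2.50e-11). On deposited values the NAc minus PFC difference of 1427763_a_at was -0.06 and no longer called (adjusted p = 0.574). The VMB minus PFC difference of 0.24 (0.02 to 0.45) missed the threshold of 0.01 with an adjusted p of 0.044, and passed it on deposited values (0.32, adjusted p = 0.00744).

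Camk2g, the gamma subunit, reported in neurons as a carrier of calmodulin to the nucleus, also had its lowest level in NAc after quantile normalization. Probeset 1423941_at averaged 9.17 ± 0.11 in NAc, 9.92 ± 0.11 in VMB and 10.15 ± 0.11 in PFC, and 1423942_a_at averaged 9.39 ± 0.13, 10.19 ± 0.08 and 9.88 ± 0.13 (SD, n = 19 each). For both probesets, all NAc arrays were below all VMB and all PFC arrays, a separation lost on deposited values, where NAc spanned 9.27 to 9.90, VMB 9.35 to 9.91 and PFC 9.65 to 10.10 for 1423941_at. NAc minus PFC was -0.97 for 1423941_at (adjusted p = 8.97e-33) and -0.49 for 1423942_a_at (adjusted p = 1.29e-17), which turned to 0.19 for 1423942_a_at on deposited values. The probesets parted on VMB against PFC. VMB minus PFC was -0.23 for 1423941_at (adjusted p = 1.26e-07) and 0.31 for 1423942_a_at (adjusted p = 2.22e-10), so the order of VMB and PFC for Camk2g depended on the probeset read. NAc minus VMB was -0.75 (adjusted p = 2.52e-27) and -0.80 (adjusted p = 2.28e-27), and the value of 1423941_at was -0.09 and not called on deposited values (adjusted p = 0.0386).

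**Figure D1:**
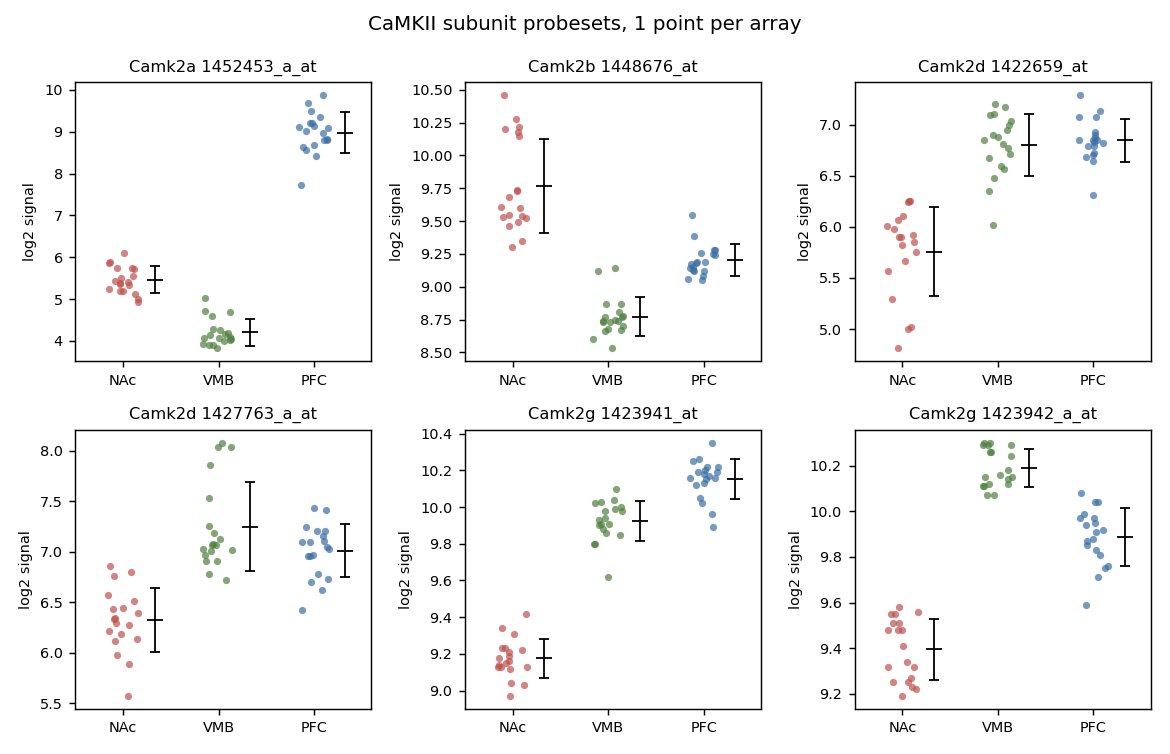
Log2 signal (quantile normalized) of the 6 CaMKII subunit probesets in each array of NAc, VMB and PFC. Points are arrays (19 per region), and the bar beside each column is the mean with 1 SD. The panels have separate axes. Camk2a in PFC (7.74 to 9.88) lay above all NAc and VMB arrays, and Camk2b in NAc shows the upper set of 6 arrays from 10.15.

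Among the kinases of the Camkk cascade, Camkk2 had by far its lowest signal in VMB for 2 of its 3 probesets. Camkk2 encodes an upstream kinase of the Camk1 and Camk4 products and also of AMP-activated kinase. Probeset 1424475_at measured 7.23, 7.72 and 7.83 in NAc, 5.52, 5.82 and 6.25 in VMB, and 7.94, 8.46 and 8.80 in PFC (lowest, median, highest). None of these ranges overlapped, though NAc and PFC did on deposited values. The difference was -0.75 for NAc minus PFC (1.69-fold, adjusted p = 7.19e-18), -2.59 for VMB minus PFC (6.01-fold, 95% interval -2.71 to -2.47, adjusted p = 1.29e-44) and 1.83 for NAc minus VMB (3.56-fold, adjusted p = 1.28e-36). On deposited values the first of these was -0.10 and not called (adjusted p = 0.112).

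Probeset 1424474_a_at of Camkk2 measured 9.23, 9.77 and 9.94 in NAc, 7.70, 8.21 and 8.67 in VMB, and 9.07, 9.81 and 10.05 in PFC. Here NAc and PFC overlapped throughout, and both were above all VMB arrays. VMB minus PFC was -1.60 (3.03-fold, adjusted p = 3.15e-31) and NAc minus VMB was 1.56 (2.94-fold, adjusted p = 1.47e-30). NAc and PFC did not differ at the threshold (-0.04, 95% interval -0.17 to 0.09, adjusted p = 0.56), and the sign of this difference turned to 0.02 with array medians subtracted and to 0.64 with deposited values. The third probeset, 1424476_at, was near or under the low-signal limit outside PFC, with 17 of 19 deposited NAc values, 19 of 19 VMB values and 1 of 19 PFC values under it. It measured 3.54 to 4.16 in NAc, 3.24 to 3.69 in VMB and 4.44 to 6.67 in PFC. Both other regions stood below PFC (adjusted p = 5.84e-23 for NAc and 1.78e-28 for VMB). With values under the limit raised to it on the deposited scale, 1424476_at was at least 1.47-fold lower in NAc and at least 1.47-fold lower in VMB than in PFC, and NAc and VMB are given no order. VMB was thus lowest for 2 Camkk2 probesets, and these differed on NAc against PFC.

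Camk4, the nuclear kinase, gave 3 probesets with 3 regional orders. Probeset 1426167_a_at, the one used where a single Camk4 probeset was needed, measured 6.32, 6.57 and 6.88 in NAc, 5.18, 5.53 and 5.87 in VMB, and 5.97, 6.28 and 7.20 in PFC. Every VMB array was below every NAc and every PFC array. The difference was 0.28 for NAc minus PFC (adjusted p = 8.79e-05), -0.79 for VMB minus PFC (adjusted p = 2.12e-17) and 1.07 for NAc minus VMB (adjusted p = 3.68e-23). Probeset 1421941_at averaged 4.95 ± 0.23 in NAc, 4.54 ± 0.32 in VMB and 5.22 ± 0.28 in PFC, with 13 of 19 deposited VMB values under the low-signal limit. VMB was again lowest, at least 1.24-fold below PFC with values under the limit raised to it (adjusted p = 3.84e-10), while NAc minus PFC was -0.26 (adjusted p = 0.00539), a difference that turned to 0.39 on deposited values and missed the threshold with array medians subtracted (adjusted p = 0.0208). Probeset 1452572_at ran another way, with 5.56 ± 0.16 in NAc, 5.48 ± 0.13 in VMB and 5.28 ± 0.12 in PFC. It was lowest in PFC, with 0.29 for NAc minus PFC (adjusted p = 6.93e-08) and 0.20 for VMB minus PFC (adjusted p = 5.88e-05), and NAc and VMB did not differ at the threshold (0.09, adjusted p = 0.0754) unless deposited values were used (0.51, adjusted p = 2.03e-15).

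Camk1, a kinase of the cytosol linked to neurite growth, was highest in PFC for both probesets and lowest in NAc, except on deposited values. Probeset 1417604_at averaged 6.77 ± 0.28 in NAc, 7.06 ± 0.11 in VMB and 7.40 ± 0.12 in PFC, and 1417605_s_at averaged 7.13 ± 0.21, 7.51 ± 0.08 and 7.87 ± 0.10 (SD, n = 19 each). The suffix s marks probes that can match transcripts of more than a single gene. All NAc arrays were below all PFC arrays for both probesets, though not on deposited values. NAc minus PFC was -0.64 (adjusted p = 7.91e-15) for 1417604_at and -0.74 (adjusted p = 2.05e-22) for 1417605_s_at, and on deposited values neither difference was called. VMB minus PFC was -0.35 for 1417604_at (adjusted p = 5.18e-07) and -0.37 for 1417605_s_at (adjusted p = 1.07e-10). In the same order NAc minus VMB was -0.29 (adjusted p = 1.27e-05) and -0.37 (adjusted p = 6.69e-11), and both signs turned on deposited values, to 0.26 and 0.19.

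**Figure D2:**
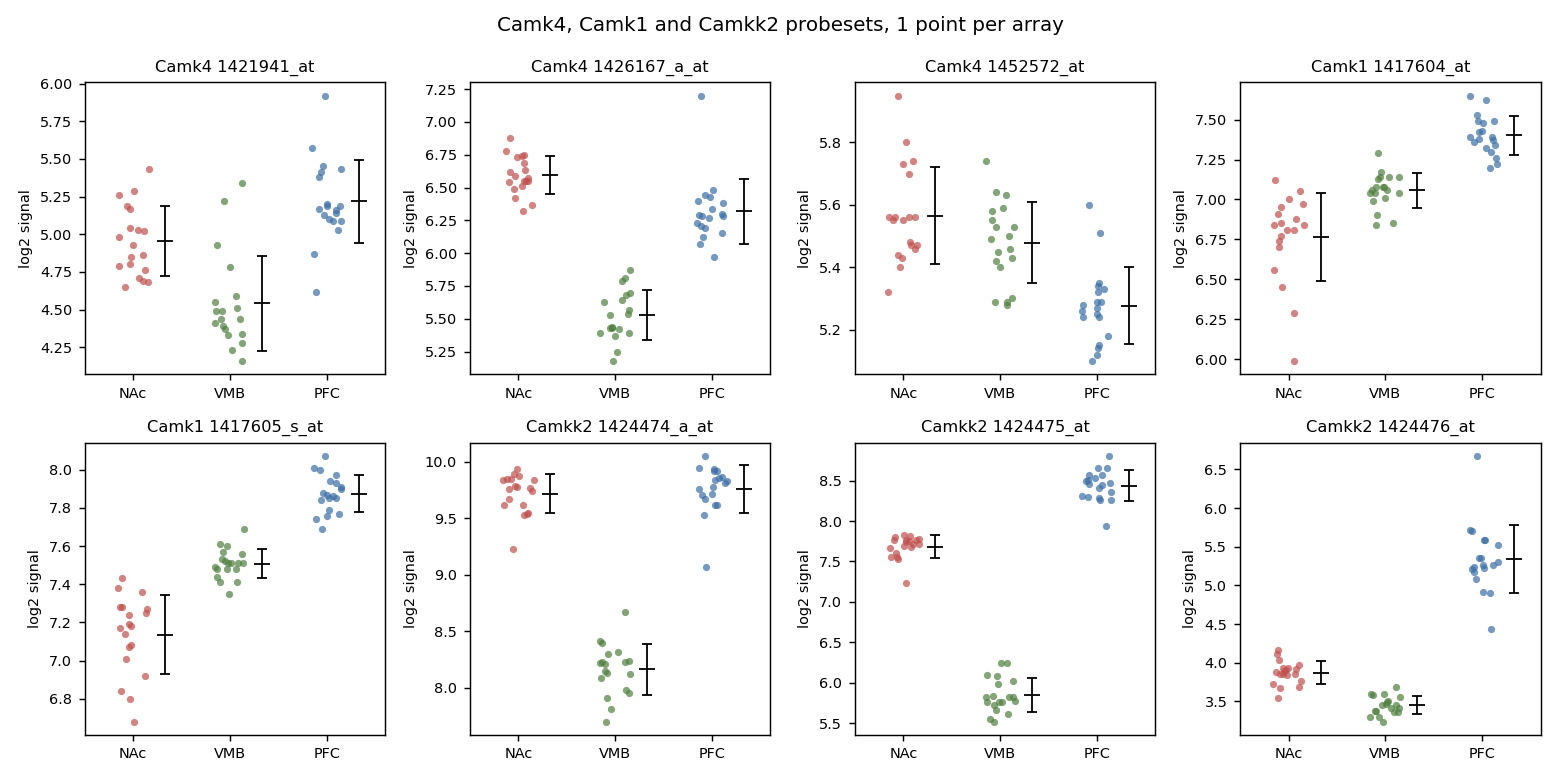
Log2 signal (quantile normalized) of the 3 Camk4, 2 Camk1 and 3 Camkk2 probesets in each array of NAc, VMB and PFC. Points are arrays (19 per region), bars are the mean with 1 SD, and the panels have separate axes. Camkk2 1424475_at shows no overlap of VMB (5.52 to 6.25) with NAc or PFC, and the 3 Camk4 panels differ in which region is lowest.

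Over the 14 probesets, most differed between regions, as did most probesets of the array. For NAc minus PFC, 13 were called at an adjusted p under 0.01 (limma, Benjamini-Hochberg over 19815 probesets), 3 higher and 10 lower, against 72.5% of all tested probesets called (38.6% higher and 33.9% lower). Deposited values gave 10 calls for this comparison, 6 higher and 4 lower. For VMB minus PFC, 12 were called, 2 higher and 10 lower, against 72.8% (37.7% higher and 35.2% lower). For NAc minus VMB, 13 were called, 7 higher and 6 lower, against 74.7% (39% higher and 35.7% lower), and deposited values gave 10 higher and 3 lower. The difference between the members' share and the background was not tested. The median member difference was -0.66, -0.40 and 0.25 in these comparisons, against 0.03, 0.02 and 0.02 over all tested probesets. On deposited values it was -0.03, -0.34 and 0.67, against 0.72, 0.18 and 0.55. Oligodendrocyte markers (5 of 6 tested) averaged 10.52 to 10.80 in NAc, 11.33 to 11.63 in VMB and 8.28 to 9.74 in PFC, without overlap, and their part in these counts was not tested.

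A second rule asked for a difference beyond 1 log2 unit. It called Camk2a and Camkk2 1424476_at, both lower, for NAc minus PFC, where it called 3.62% of all probesets (1.6% higher and 2.01% lower). On deposited values Camkk2 1424476_at was no longer called there, at -0.75, and Camk2b was called as higher. On that scale the rule called 14% of all probesets higher and 0.53% lower. For VMB minus PFC it called 4, Camk2a and the 3 Camkk2 probesets, all lower, against 6.47% (2.97% higher and 3.51% lower). The calls of Camkk2 1424476_at rest on values under the low-signal limit, where its bound is less than 1 log2 unit. For NAc minus VMB it called Camkk2 1424474_a_at and 1424475_at, both higher, against 5.77% (2.96% higher and 2.82% lower). On deposited values it also called Camk2a, Camk2b and Camk4 1426167_a_at as higher, against 10.1% of all probesets higher and 0.944% lower. Regions without any overlap of arrays were found for 8 members in NAc against PFC, all lower, where 21.9% of all probesets did not overlap (12.1% higher and 9.8% lower). On deposited values this count was 3, with Camk2a lower and Camk2b and Camk4 1452572_at higher, against 60% of all probesets higher and 1.37% lower. VMB against PFC had 5 such members, all lower, against 23.9% (12.5% higher and 11.5% lower). On deposited values it had 4, again all lower, against 18.7% of all probesets higher and 8.53% lower. NAc against VMB had 4 higher and 2 lower, against 23.1% (11.5% higher and 11.6% lower), and 6 higher and 0 lower on deposited values, against 40.8% higher and 2.6% lower.

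**Figure D3:**
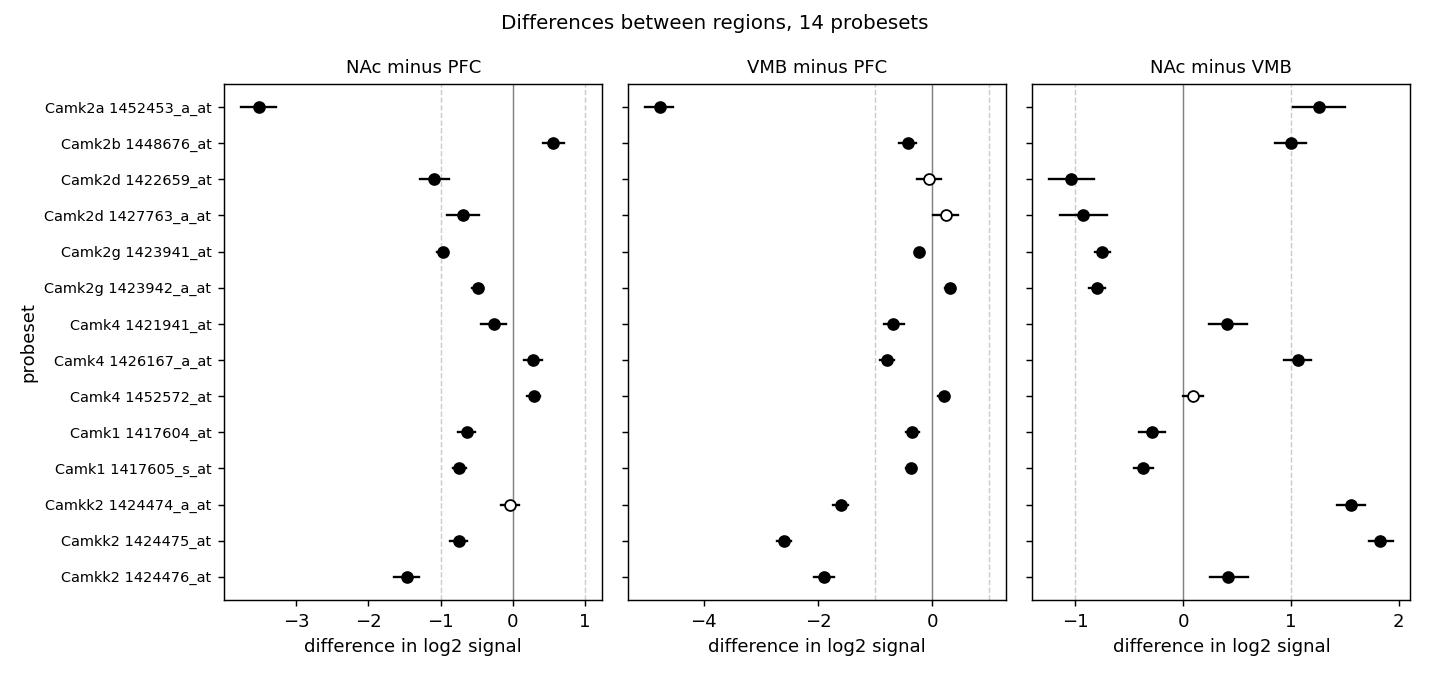
Difference in log2 signal between regions for the 14 probesets, with its 95% interval, in 3 panels with separate axes. Filled points passed an adjusted p under 0.01 and open points did not. Dashed lines mark a difference of 1. Camk2a and the Camkk2 probesets reach the most negative values for VMB minus PFC (-4.77 and down to -2.59).

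Other genes of calcium/calmodulin signalling were taken from a list of 55, of which 39 had a tested probeset with a single symbol. In NAc against PFC, 15 of the 39 were higher and 19 lower, and 87.2% were called. Of the 11342 genes tested, 4704 were higher and 3596 lower, and 73.2% were called. On deposited values 26 of the 39 were higher and 9 lower, where 94.3% of all called probesets were higher. Pde1b, a calmodulin-dependent phosphodiesterase abundant in striatum, was 2.23 higher in NAc, Pcp4, a small calmodulin-binding protein, 1.50 higher, and Actn2, an actinin that anchors CaMKII and NMDA receptors, 1.39 higher. Lower in NAc were Pde1a, a related phosphodiesterase (-2.84), Nrgn, the dendritic calmodulin buffer neurogranin (-1.77), and Mef2c, a transcription factor (-1.46). The oligodendrocyte markers were higher in NAc here too, in the ranges given above. The adjusted p-values of these 6 genes ran from 4.98e-23 (Nrgn) down to 4.72e-48 (Pde1b).

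In VMB against PFC, 9 of the 39 genes were higher and 28 lower, with a median difference of -0.76 against 0.04 over all genes tested. The share called was 94.9% against 74.4%. Of the 11342 genes tested, 4535 were higher and 3904 lower. All 8 tested synaptic targets and anchors were lower in VMB. Among them were Gria2, an AMPA receptor subunit (-1.75), Syn1 and Syn2, which encode synapsins (-1.20 and -1.37), and Grin2b, the NMDA receptor subunit to which CaMKII binds (-1.28). Of the calcineurin group, 5 of 6 were lower and Rcan2, a calcineurin regulator, was 1.08 higher. Pde1a (-4.48), Mef2c (-4.01) and Nrgn (-3.96) had the most negative values of the list, and Pcp4 (1.07) and Adcy8, a calmodulin-stimulated adenylyl cyclase (0.79), were higher in VMB. Oligodendrocyte markers moved with this comparison as well, and their part in the differences was not tested.

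In NAc against VMB, 27 of the 39 were higher, 5 lower and 7 not called. Of the 11342 genes tested, 4454 were higher and 4035 lower. On deposited values 38 of the 39 were higher and 1 lower, where 89% of all called probesets were higher. After quantile normalization the share called was 82.1%, against 74.8% of all genes. Actn2 (2.78), Mef2c (2.55) and Gria2 (2.30) were highest in NAc relative to VMB. The VMB mean of Actn2 was 4.45, near the low-signal limit, and no bound was computed for its difference. Adcy8 (-1.78), Rcan2 (-0.38) and Dlg4, the scaffold PSD-95 (-0.30), were lower in NAc, with the signs of Rcan2 and Dlg4 turned on deposited values (0.26 and 0.28). The group listed as kinases bound or regulated by calmodulin had 7 higher and 0 lower among 9. The higher genes include Camkv (2.08) and Dclk1 (1.35), relatives of the CaMK family whose own activity and calmodulin binding were not examined here.

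**Figure D4:**
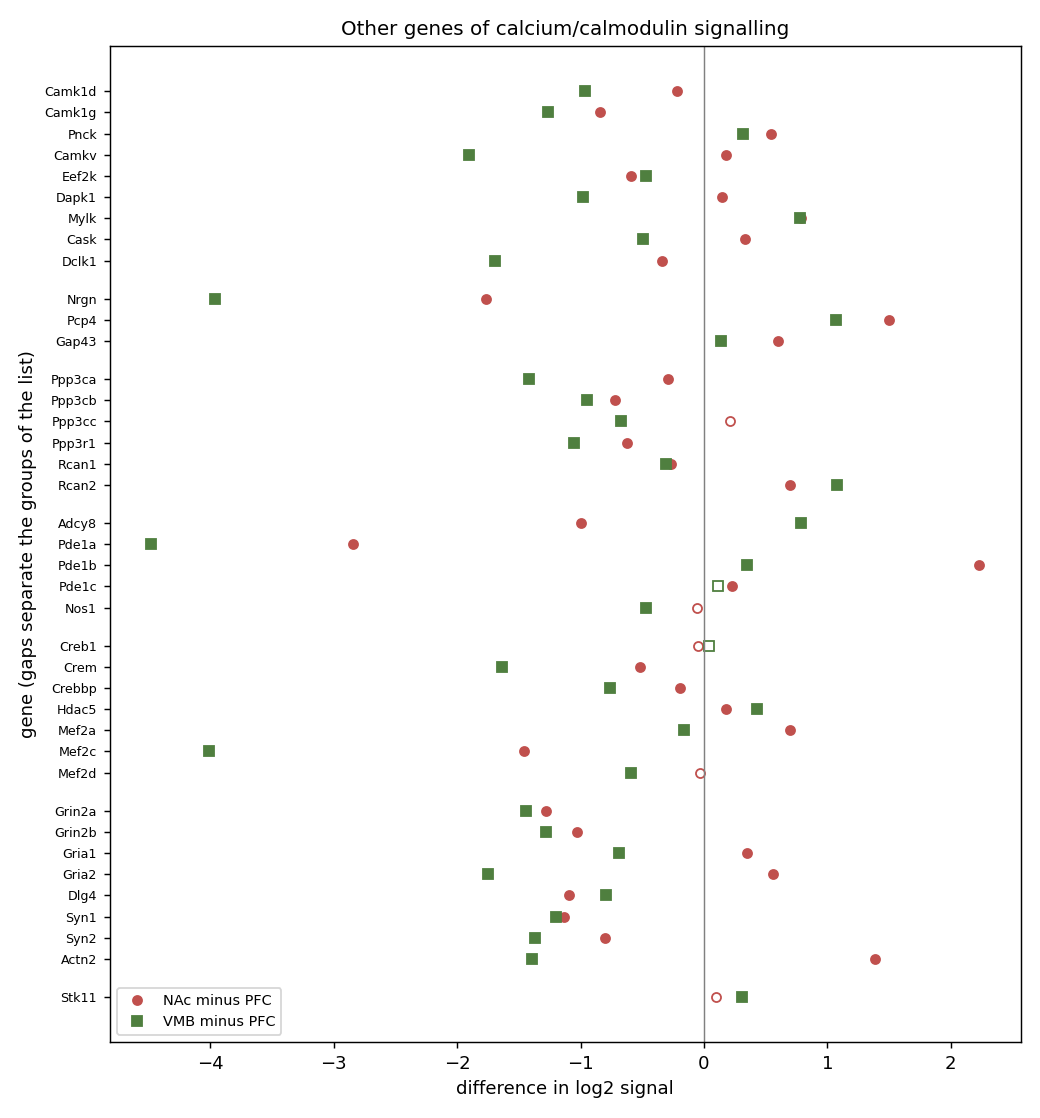
Difference in log2 signal for the 39 tested genes of calcium/calmodulin signalling outside the member list, NAc minus PFC (circles) and VMB minus PFC (squares), on quantile-normalized values. Filled symbols passed an adjusted p under 0.01. Gaps separate the groups of the list. The VMB squares of all 8 synaptic genes lie left of 0, and Pde1a has the most negative square (-4.48).

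The members varied among mice to different extents. In PFC the SD of Camk2a was 0.49, above that of 99.4% of tested probesets, and that of Camkk2 1424476_at was 0.44, above 99.2%, where the median SD of all probesets was 0.13. Camk2d 1427763_a_at was above 93.1% in NAc, 97.6% in VMB and 95.2% in PFC. Camk2d 1422659_at was above 98.3%, 90.8% and 88.8% in this order, and the ranking of mice by the 2 probesets is compared below. In VMB, 1427763_a_at had r = 0.720 with the first principal component, which passed, while rho did not (permutation test, adjusted p = 0.0149 and 0.0502). Camk2g stayed at or under an SD of 0.13 in every region, with 1423942_a_at at 0.08 in VMB, above only 4.11% of probesets. Camk1 1417605_s_at was as narrow in VMB (0.08, above 2.99%) but not in NAc, where the SDs of 1417604_at and 1417605_s_at were 0.28 and 0.21. Without the 3 NAc arrays farthest along the first principal component they were 0.14 and 0.19 (above 52.7% and 80.9%).

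Single arrays held the ends of several ranges in each region, while other ends were spread over many arrays. NAc replicate 1 was lowest for 3 member probesets and highest for 3. PFC replicate 14 was lowest of the 19 for Camk2a (7.74), Camk2d 1427763_a_at (6.42) and all 3 Camkk2 probesets (9.07, 7.94 and 4.44), and it was highest for Camk2b (9.55) and Camk1 1417604_at (7.65). PFC replicate 8 was highest for Camk2a (9.88) and Camkk2 1424476_at (6.67), and it also had the highest oligodendrocyte marker mean of PFC (9.74, against a median of 8.72). PFC replicate 3 was highest for 2 Camk4 and 2 Camkk2 probesets. Leaving out PFC replicate 14 changed no regional call of the 14 probesets, and NAc minus PFC was then -3.59 for Camk2a. VMB replicate 6 was lowest of the VMB arrays for 5 member probesets and had the highest choroid plexus marker mean of VMB (6.97, against a median of 5.09). Without it no regional call of the 14 probesets changed either.

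Probesets of the same gene ranked the mice alike in only some cases. Of 27 same-gene relations within a region, 6 had a Pearson correlation with a permutation p under 0.05 after Benjamini-Hochberg adjustment over the 27, all positive, and 1 had a Spearman correlation that passed. The 2 Camk1 probesets correlated in NAc with r = 0.735 and rho = 0.745 (permutation p = 0.00051 and 0.0003, adjusted p = 0.00688 and 0.0081), and r was 0.744 without the 2 most distant arrays. In PFC, Camkk2 1424474_a_at and 1424475_at had r = 0.782 and rho = 0.621 (permutation p = 0.00025 and 0.00527, adjusted p = 0.00675 and 0.0519), with r = 0.528 without the 2 most distant arrays. Without PFC replicate 14, 1 of the 27 passed, the Camk1 relation in NAc, and 8 had an unadjusted p under 0.05, as many as with it. Some calls were then lost with little or no change in r. Camk2g in VMB had r = 0.579 with and without this PFC array (adjusted p = 0.0611 without it and 0.036 with it). For Camk4, 1421941_at and 1426167_a_at had r = 0.679 in PFC (rho = 0.525, permutation p = 0.0046 and 0.0221, adjusted p = 0.031 and 0.0765) and r = 0.656 without replicate 14 (adjusted p = 0.0611). Probeset 1452572_at had r = -0.411 and -0.494 with the other Camk4 probesets in PFC (rho = -0.535 and -0.482, permutation p = 0.0838 and 0.0521, adjusted p = 0.199 and 0.156), which did not pass. The 2 Camk2d probesets had r = 0.543 in NAc, 0.045 in VMB and 0.191 in PFC, and none passed (permutation test, adjusted p = 0.062, 0.926 and 0.574). On deposited values the NAc relation passed (r = 0.564, adjusted p = 0.0393). With the first principal component removed, the VMB relation passed as a negative one (r = -0.655, adjusted p = 0.0123).

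Between member genes, 3 of 63 relations within a region passed (permutation test of Pearson's r, adjusted over the 63), and none passed with Spearman's rho, although 13 of the 63 had an unadjusted p under 0.05 by rho. The 3 were Camk2b with Camk2g and with Camk1 in NAc, and Camk2d with Camkk2 in VMB. Over all 19 arrays r was 0.673, -0.788 and -0.676 in this order (rho = 0.609, -0.682 and -0.572). The values of 1 gene of each relation were also split at their largest gap, which any probeset has. The correlation was then computed on the larger side only. Within the 13 NAc arrays of the lower Camk2b set, r was 0.044 with Camk2g (rho = 0.066, permutation p = 0.889 and 0.831) and -0.079 with Camk1 (rho = -0.107, permutation p = 0.799 and 0.728). In VMB, 4 arrays (replicates 4, 5, 17 and 19) had Camk2d 1427763_a_at at 7.86 or more and 15 had 7.53 or less, and within the 15 the correlation with Camkk2 was -0.094 (rho = -0.158, permutation p = 0.729 and 0.567). Since these sets were taken by the value of a correlated gene, which narrows its range, the values within them do not show what the relations rested on. Without the 2 arrays farthest from the median of the first gene, r was 0.614, -0.786 and -0.552 in the order above. With the first principal component of each region removed, 0 of the 63 passed (permutation test of r, with 11 under an unadjusted p of 0.05).

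Camk2a and Camkk2 shared their extreme arrays in PFC, and this relation was computed after their values were seen, for 3 Camkk2 probesets in 3 regions. In PFC, Camk2a had r = 0.708 with 1424475_at (rho = 0.614, permutation p = 0.00092 and 0.00655, adjusted over 9 to 0.00828 and 0.0309) and r = 0.701 with 1424476_at (rho = 0.581, permutation p = 0.00195 and 0.0103, adjusted to 0.00877 and 0.0309). Without the 2 arrays farthest from the Camk2a median, replicates 8 and 14, r was 0.450 (permutation p = 0.0725) and 0.303 (permutation p = 0.239), so neither relation held at 0.05 without this pair of arrays, the extremes of Camk2a itself. Without replicate 14 alone r was 0.522 (permutation p = 0.0269) and 0.579 (permutation p = 0.0109). With 1424474_a_at r was 0.427, and -0.124 without replicate 14 (permutation p = 0.623). In NAc, r was 0.495 with 1424474_a_at (rho = 0.514, adjusted p = 0.0882 and 0.0588), and with 1424475_at rho passed and r did not (rho = 0.598, adjusted p = 0.0309, r = 0.180, adjusted p = 0.559). In VMB the 3 correlations lay between -0.254 and 0.166, with adjusted p-values of 0.531 or more.

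**Figure D5:**
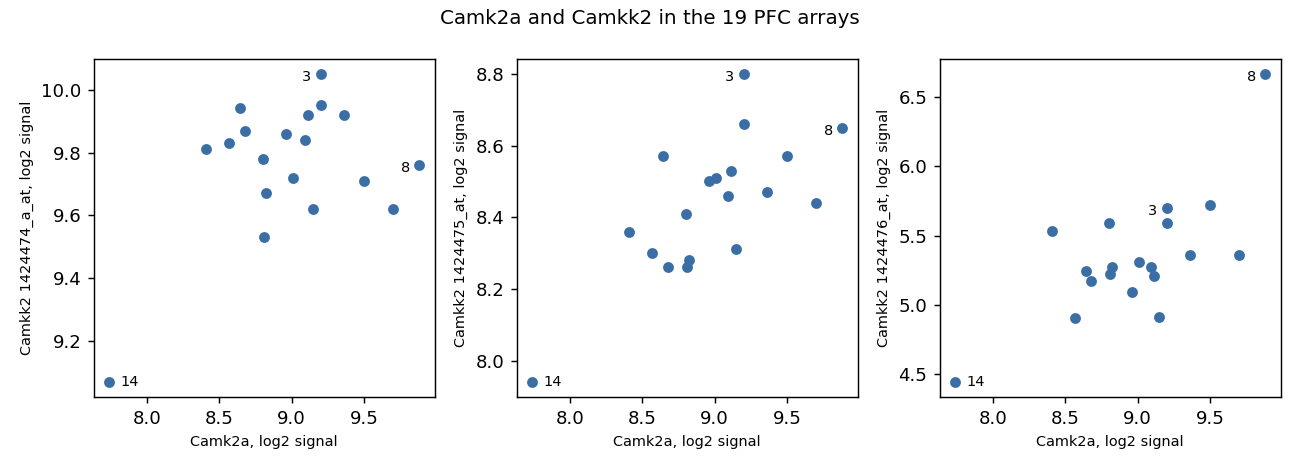
Log2 signal of the 3 Camkk2 probesets against that of Camk2a in the 19 PFC arrays (1 point per array, replicates 3, 8 and 14 numbered). Replicate 14 is at the lower left of every panel (Camk2a 7.74), and replicate 8 at the upper right of the panel of 1424476_at (6.67).

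The genes most like a member in pattern were found by Pearson's r, as a description. The 57 arrays share their region, so r over all of them mostly follows the regional levels. Camk2a was closest to Fezf2 and Lingo1 (r = 0.981 each) and Fbxw7 (0.978), Camkk2 1424474_a_at to Enc1 (0.975), Hivep2 and Dpf1 (0.973 each), Camk4 1426167_a_at to Klf5 (0.927), Phactr1 (0.926) and Neto1 (0.923), and Camk2d 1427763_a_at to Pafah1b2 (0.922), Aplp2 (0.917) and Gabbr1 (0.911). With region means removed, the leading genes were others. Camk2d was then closest to Ywhag (0.838), Cdk14 (0.821) and Scd2 (0.818), Camk2a to Fscn1 (0.685), Vamp2 (0.664) and Cx3cl1 (0.611), Camkk2 to St8sia5 (0.707), Ptdss2 (0.686) and Zfp148 (0.674), and Camk4 to Cuedc1 (0.688), Rassf3 (0.677) and Tmem87a (0.670).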

How the data were processed

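The authors deposited 57 columns of log2 signals, 1 per array, summarised by RMA, and GCOS is the other tool named in the submitters' notes (no version given there for either). The deposited values were quantile normalized once more over all 57 arrays, and probesets were tested where a deposited value reached 4.5 on at least 1 array, which removed 2811. Regions were compared with limma 3.58.1 (R 4.3.3), with region means fitted over all arrays, empirical Bayes moderation without trend or robust options, and Benjamini-Hochberg adjustment over 19815 probesets at 0.01, and again with a minimum difference of 1. Correlations within a region used 100000 two-sided permutations and a threshold of 0.05. The fit was tested on simulated data. The number of arrays limits the precision.

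Members, lists and tests were chosen with earlier results of these data known. The text names every member, in each comparison the 3 largest called pathway differences in each direction, further pathway genes as examples of their group chosen after their values were seen, and the 3 genes most like each of 4 members. For genes with several probesets the one with the highest mean was used in pathway counts and in relations between genes. Pathway and marker genes without a tested single-symbol probeset are not analysed here.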

Additional observations from a re-analysis of the deposited data

How the results depend on the processing

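The regional calls were recomputed with deposited values, with array medians subtracted, without the low-value filter, with trend and robust moderation, with array weights, with the replicate number as a block, without PFC replicate 20, without the 3 NAc arrays farthest along the first principal component and, chosen after seeing the data, without PFC replicate 14 and without VMB replicate 6. Pathway counts were also recomputed with the probeset of largest SD per gene. Of the 9 counts of calls between regions, only the minimum-difference count of members for NAc minus VMB moved by more than 1.5 times, to 5 with deposited values. Of the 3 counts of members without overlap, recomputed with deposited values after seeing the data, that for NAc minus PFC moved to 3. Of the named probesets, 580 of 600 recomputed differences kept their direction and their side of the threshold, and 15 of the other 20 came from deposited values. With deposited values the sign turned for Camk2g 1423942_a_at (0.19), Camk4 1421941_at (0.39) and Camkk2 1424474_a_at (0.64) in NAc minus PFC, for Camk2d 1422659_at (0.05) in VMB minus PFC, and for both Camk1 probesets (0.26 and 0.19), Rcan2 (0.26) and Dlg4 (0.28) in NAc minus VMB. Array medians subtracted turned Camkk2 1424474_a_at to 0.02, and array weights turned Camk2d 1422659_at to 0.02. The share of called probesets that were higher was 94.3% with deposited values for NAc minus PFC, 68.3% for VMB minus PFC and 89% for NAc minus VMB, against 53.3%, 51.7% and 52.2% after quantile normalization.

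Relations among mice were less stable. The count of 3 member relations was 0 with Spearman's rho, 0 with the first principal component removed, 0 without the 3 NAc arrays and 8 with deposited values. In the permutation tests behind the counts of 0, the relations under an unadjusted p of 0.05 numbered 13, 11 and 12 in the same order. The count of 6 same-gene relations was 1 with Spearman's rho and 1 without PFC replicate 14, with 9 and 8 under an unadjusted p of 0.05 in these tests, against 8 in all arrays by r. Without VMB replicate 6 the counts were 4 and 6, the added relation being Camk2a with Camk4 in VMB. The causes of these moves were not tested.

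The methods state that the same 19 mice gave the 3 regions, but no source says that a replicate number names a mouse. Arrays sharing a number had a mean correlation of 0.0561 (NAc and PFC), 0.0129 (VMB and PFC) and 0.0712 (NAc and VMB) after region means were removed, over 18 shared numbers. Only 2, 1 and 2 of the 18 in this order correlated best with their own number. With the replicate number as a block (consensus correlation 0.0546), the member calls were 13, 12 and 13 and no call of a named probeset changed.

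The planned relation to the actin control probesets was not run, since control rows were not used here. Values under 4.5 limit Camk2a and Camk4 1421941_at in VMB, and Camkk2 1424476_at in NAc and VMB. Bounds were computed for member probesets only, and the pathway genes Actn2, Pde1a and Grin2b had VMB means near this limit.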
